A study of Caenorhabditis elegans with 28 samples.

Results

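The regions described here are the 408 autosomal stretches of the Caenorhabditis elegans genome with a LAG-1 peak in exactly 2 of 4 LAG-1 libraries, no peak in any of 4 Notch libraries and none in any of 6 control libraries. They were chosen by the presence of peaks in the 14 deposited lists, so presence and peak height are given as descriptions and support nothing. Peaks that overlapped by at least 1 bp were merged into 24961 regions, of which 20839 lay on chromosomes I to V. The 408 made up 1.96% of the autosomal regions and 20.3% of the 2011 autosomal regions with a LAG-1 peak and no Notch or control peak.

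LAG-1 is the worm member of the CSL family, DNA-binding proteins through which Notch receptors act on their target genes. When a Notch receptor such as GLP-1 meets its ligand, its intracellular domain is released, enters the nucleus and joins CSL and a coactivator on DNA. Without the Notch domain, CSL proteins can still bind DNA and are known to recruit corepressors. GLP-1 signalling keeps germline stem cells from entering meiosis.

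Chromatin came from whole L4 larvae grown at 20 °C. LAG-1 with an N-terminal tag (strain label pJK1689) gave the LAG-1 libraries a, b, c and e, and GLP-1 with a C-terminal tag (pJK1662) gave Notch libraries a to d. Control animals with Flag- and Myc-tagged GFP (pJK1728) gave 3 libraries titled Flag and 3 titled Myc. The labels name a Myc antibody for both target proteins and a Flag antibody for all 6 controls, the Myc ones included, so no control carries the label of the antibody named for LAG-1. The sources used here do not name the promoters that drive the tagged proteins, and chromatin of whole animals mixes the germline with all other tissues. The design text calls the Notch and control replicates biological and the LAG-1 ones replicates only, so p-values measure the spread between these libraries, which may be technical. Regions are named by ce10 coordinates, and genes and sequences are not analysed here.

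LAG-1 lists a, b, c and e held 505, 1533, 1085 and 1965 peaks from 18.6, 19.8, 11.23 and 9.37 M tags, and the other 10 lists held 44 to 8261 peaks from 3.13 to 16.8 M tags. Notch c (8261 peaks), Myc control a (8078) and Myc control c (5824) stood apart. Before the Notch and control lists were considered, 577 autosomal regions had a peak in exactly 2 LAG-1 libraries. A Notch or control peak removed 169 of them, 62 through Notch alone, 89 through controls alone and 18 through both. Notch c had a peak at 71 of the 169, Myc control a at 61 and Myc control c at 49, and at 152 of them no Notch or control library other than these 3 had a peak. Without the 3 long lists, which was tried after seeing the data, 561 regions met the rule.

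The 2 libraries were mostly the same 2. The pair b and e held 310 of the 408 regions, or 76.0% (exact binomial 95% interval 71.5% to 80.05%, counting error only). The pair c and e held 39, b and c 27, a and e 17, and a and b 15. No region had its 2 peaks in a and c, and for a count of 0 of 408 the exact binomial 95% interval reaches 0.900%. The lists b and e were also the longest of the 4. Tag totals were 9.37 M in e, 18.6 M in a and 19.8 M in b. Those of a and b were scaled by the authors, so they do not rank the libraries by depth.

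**Figure D1:**
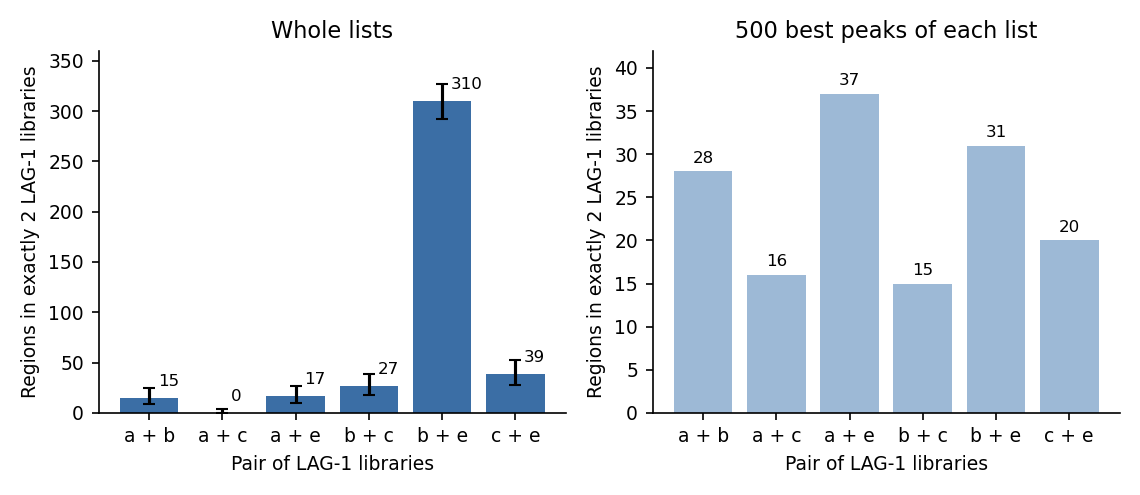
Number of regions (vertical axis) in each pair of LAG-1 libraries (horizontal axis), with whole lists on the left and with at most the 500 best-scoring peaks of each list on the right; bars on the left carry exact binomial 95% intervals. The pair b and e has 310 of 408 regions with whole lists and 31 of 147 with the shortened lists.

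The order of the pairs was another one with shorter lists. With at most the 500 best-scoring peaks of each list, which shortens all 4 LAG-1 lists and also Notch a, Notch c, Myc control a and Myc control c, 147 regions met the rule, and the share of b and e was 21.1%. The pair a and e then held 37, b and e 31, a and b 28, c and e 20, a and c 16 and b and c 15. Of these 147, 60 overlapped the 408 and 74 overlapped regions in which the whole lists had peaks in at least 3 LAG-1 libraries. At 29 of the 147 the whole lists had a Notch or control peak. Regions chosen from the 500 best peaks were thus mostly other regions than the 408.

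Seen from each library, the 408 regions took a different share of the autosomal LAG-1 regions without a Notch or control peak. They were 352 of 909 such regions in b (38.7%), 366 of 1181 in e (31.0%), 32 of 257 in a (12.5%) and 66 of 702 in c (9.40%). Library c had 488 of its 702 regions to itself, and library a had 7 of its 257. Among the 186 regions just above the rule, with a peak in 3 LAG-1 libraries, 124 were in a, b and e, 54 in b, c and e, 4 in a, b and c, and 4 in a, c and e. The pair b and e is part of both of the most frequent sets.

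The 816 peaks, 1 per library in every region, had median folds not far from those of their whole lists. The authors' fold over input, which the caller required to be at least 4, is the peak's own value and describes peaks within a list, also where libraries are set side by side here. Scaling also differed: per the file headers, in a and b the precipitated sample was brought to the size of its input, while in c and e the input was rescaled. The lowest, median and highest fold was 4.01, 5.52 and 13.9 over the 352 peaks in b, 4.04, 7.06 and 24.8 over the 366 in e, 4.01, 4.99 and 8.21 over the 66 in c, and 4, 5.61 and 71.1 over the 32 in a. Over all peaks of each list the median was 5.99 in b, 7.13 in e, 4.77 in c and 6.43 in a. A fold of at least 10 was found at 77 of the peaks in e, 12 in b, 6 in a and none in c. Peaks under 5-fold over input made up 19.4%, 31.3%, 51.5% and 40.6% of those in e, b, c and a.

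Set beside regions with fewer or more LAG-1 libraries, the folds in b and e lay in between. In e the median fold was 6.07 in regions of 1 library (n = 547), 7.06 in those of exactly 2, 8.72 in those of 3 (n = 182) and 13.3 in those of all 4 (n = 86). In b these medians were 5.26 (n = 289), 5.52, 6.96 (n = 182) and 8.66 (n = 86). In c they were 4.62 (n = 488), 4.99, 4.80 (n = 62) and 5.49 (n = 86), so that regions of exactly 2 lay above those of 3. In a they were 5.68 (n = 7), 5.61, 6.06 (n = 132) and 6.72 (n = 86). The quartiles of neighbouring classes overlapped in every library. Peak height entered the choice of the regions, and no test was made.

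**Figure D2:**
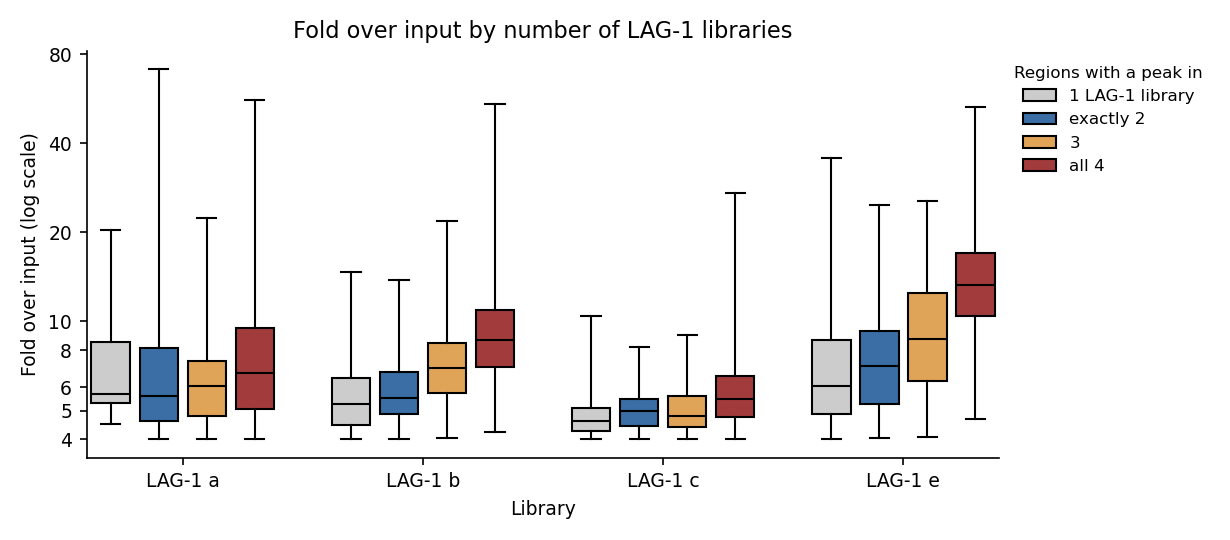
Authors' fold over input (vertical axis, log scale) of peaks in each LAG-1 library (horizontal axis), in autosomal regions without a Notch or control peak, by the number of LAG-1 libraries with a peak. Boxes give quartiles and median and whiskers the lowest and highest peak; medians for regions in exactly 2 libraries are 5.61, 5.52, 4.99 and 7.06 in a, b, c and e.

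The caller's other filter, a 4-fold excess over the surrounding 10 kb, was also met narrowly. The median local fold of the peaks was 5.46 in e, 5.04 in b, 4.89 in c and 4.43 in a. At least 1 of both folds was under 5 at 45.1% of the peaks in e, 65.6% in b, 72.7% in c and 71.9% in a. In regions of 1 library the same shares were higher, at 65.6% in e, 82.7% in b, 89.1% in c and 85.7% in a. In regions of 3 libraries they were 19.8% in e and 39.0% in b, but 79.0% in c and 74.2% in a, above those of exactly 2. In regions with a peak in all 4 libraries they were 4.65% in e, 12.8% in b, 51.2% in c and 53.5% in a.

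The focus ratio is the caller's measure of how far the tags of the strands separate around the centre of a peak. Its median was 0.738 in b, 0.764 in e, 0.767 in c and 0.685 in a over the regions of exactly 2 libraries. In regions of 3 libraries it was 0.753, 0.779, 0.784 and 0.745 in the same order. The values ranged from 0.551 to 0.928 over the regions of exactly 2 libraries, and in each library the median of the regions of exactly 2 was below that of the regions of 3. In regions of 1 library the median was lower than in those of exactly 2 in b (0.734), e (0.731) and a (0.634). In c it was higher, at 0.773, and regions of all 4 had 0.766 there, just below those of exactly 2.

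Of the 310 regions of the pair b and e, 201 had the higher fold in e and 222 the higher number of tags per 10 M. The median fold was 5.55 in b and 6.70 in e, and the median tag number 193 and 227 per 10 M. Over the whole lists the median fold was also higher in e, at 7.13 against 5.99 in b and 4.77 in c. Over these 310 regions the log2 fold in b and in e had a Pearson correlation of 0.353 and a Spearman correlation of the fold of 0.266. The tag numbers followed each other more closely, at 0.567 and 0.563. These are descriptions over regions that share their 2 libraries and that both passed a threshold in each, which narrows the range. In the pair c and e, 35 of 39 regions had the higher fold in e, and in the pair b and c 9 of 27 had the higher fold in c.

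**Figure D3:**
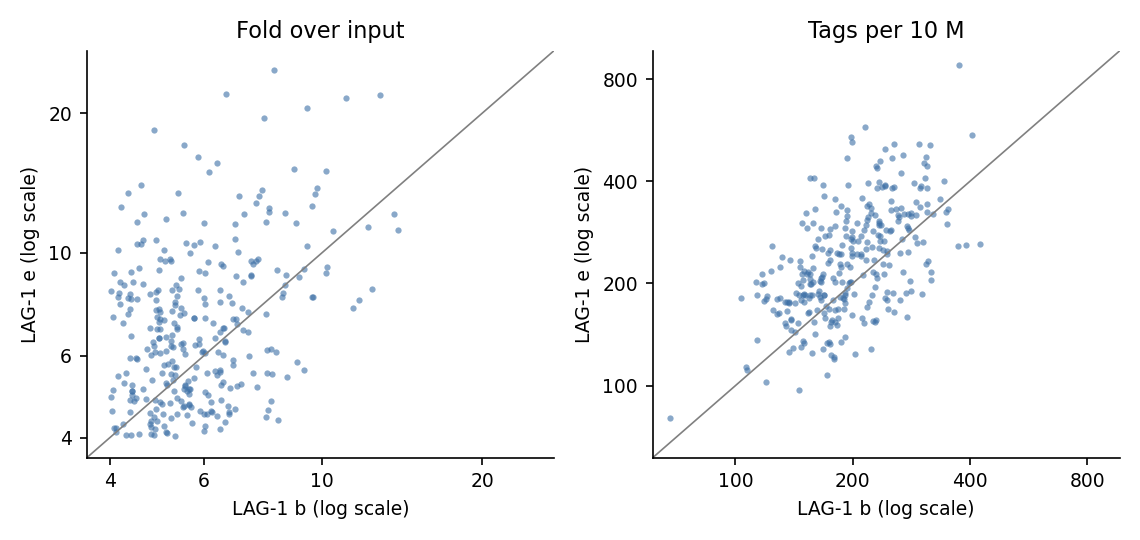
The 310 regions with peaks in LAG-1 b (horizontal axes) and LAG-1 e (vertical axes), both on log scales, by fold over input on the left and tags per 10 M on the right; the grey line marks equal values. On the left 201 points lie above the line, and on the right 222.

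The 17 regions of the pair a and e had a higher median fold in e than the regions of b and e or of c and e. Their folds in e were 5.38, 11.99 and 24.1 (lowest, median and highest), against 4, 5.64 and 17.97 in a. Tags per 10 M were higher in e at all 17, with medians of 409 and 175. Of these 17 regions 15 lay on chromosome arms (88.2%), against 60% for a and b, 63.0% for b and c, 59.0% for b and e, 64.1% for c and e and 70.3% of all autosomal regions. This is the highest share of the pairs, rests on 17 regions only, and was not tested. By the rule none of the 17 had a peak in library b.

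The region that ranked first by its place within both lists was II from 11534767 to 11535105, with a fold of 12.8 in b and 21.9 in e (mean 17.4 ± 6.41, SD, n = 2) and peak centres 15 bp apart. It had 212 tags per 10 M in b and 357 in e. The second, III from 9616869 to 9617223, belonged to a and e, with folds of 17.97 and 24.1 (21.05 ± 4.36, SD, n = 2) and 264 and 938 tags per 10 M. The third, IV from 7961833 to 7962163, belonged to c and e, with folds of 7.38 and 22.9 (15.1 ± 10.96, SD, n = 2). In each of these 3 regions the fold in e was the higher one, and the whole list of e also had the highest median fold of the LAG-1 lists.

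Other regions of b and e also had their higher fold in e. I from 4587052 to 4587382 had folds of 11.08 in b and 21.6 in e, with centres at the same base pair. III from 4172267 to 4172612 had folds of 9.37 and 20.5, and 376 and 881 tags per 10 M, the largest tag number of this pair in e. At IV from 11406850 to 11407249 the folds were 8.14 and 24.8, the highest fold in e among the 408 regions, with centres 76 bp apart. The reverse order was seen at I from 8816405 to 8816735, with 13.7 in b and 12.1 in e, and at IV from 3654244 to 3654604, with 13.9 in b and 11.2 in e.

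The remaining regions of the first 12 were II from 4229086 to 4229444 (10.2 in b, 14.99 in e), IV from 427115 to 427445 (12.7 in a, 14.9 in e), I from 9624659 to 9624989 (5.84 in c, 17.4 in e) and IV from 7316544 to 7316883 (9.77 in b, 13.8 in e). All 12 had a peak in e, as did 366 of the 408 regions (89.7%). Of the first 12, 8 belonged to b and e, 2 to a and e and 2 to c and e, and they lay on I, II, III and IV.

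The 42 regions without a peak in e, a small part of the 408, began at place 20 in the order. The best of b and c, at places 20 and 25, were II from 4904181 to 4904547, with folds of 8.08 and 6.96 (7.52 ± 0.792, SD, n = 2), and I from 13653718 to 13654102, with 8.32 and 5.97. The best of a and b, at places 57 and 82 of the 408, were I from 9422200 to 9422529, with 8.65 and 7.44, and II from 2220088 to 2220440, with 7.51 and 7.08. At the foot of the order stood V from 14909394 to 14909807, with folds of 4.11 in b and 4.12 in e, and V from 12386711 to 12387061, with 4.13 in a and 4.01 in b.

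The highest fold went with a low input. II from 2570477 to 2570964, picked after its values were seen, had the highest fold of all 816 peaks, 71.1 in a, beside 4.01 in b. Its tags per 10 M were alike, 348 in a and 314 in b, while the input held 5 tags in a and 133 in b. The tags in a and b thus differed far less than the folds did.

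The 2 peaks of a region usually fell at nearly the same place. Their centres were 0 to 311 bp apart with a median of 34 bp, and 273 of the 408 regions (66.9%) had centres within 50 bp, while 22 had centres over 150 bp apart. Regions were 316 to 634 bp long with a median of 356 bp, in lists whose peaks were set at 291 to 331 bp. The median distance was 16 bp for a and b, 27 bp for a and e and 30 bp for b and e, but 63 bp for b and c and 66 bp for c and e. In regions of 3 or 4 libraries the pairs without c had medians of 23.5 to 30 bp and the pairs with c of 52 to 64 bp, so the wider spacing of c was also seen outside the 408 regions.

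**Figure D4:**
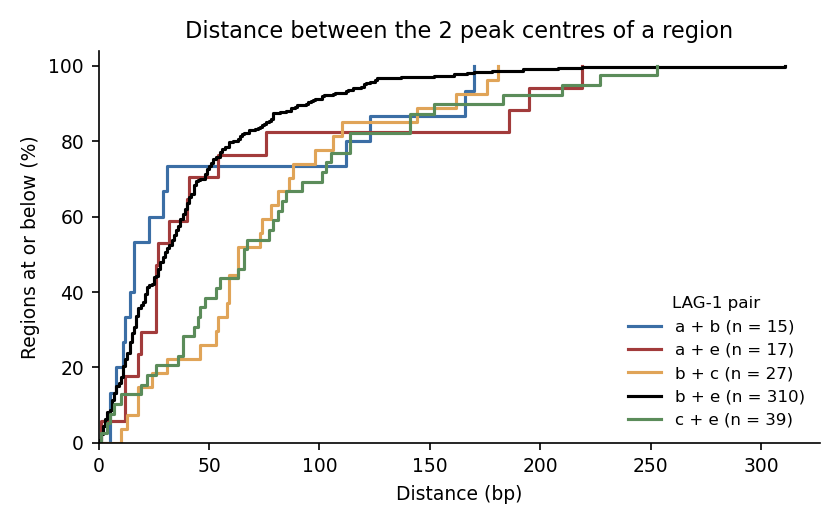
Cumulative percent of regions (vertical axis) by distance in bp between the centres of their 2 peaks (horizontal axis), 1 line for each pair of LAG-1 libraries that holds regions. At the middle of the vertical axis the lines of b and c and of c and e lie to the right of the others, with medians of 63 and 66 bp against 16 to 30 bp.

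The peaks of the 2 regions with the widest spacing were weak. V from 14267392 to 14268026 had its centres 311 bp apart, with folds of 5.18 in b and 4.75 in e. IV from 14790688 to 14791251 had centres 253 bp apart, with folds of 4.73 in c and 5.29 in e. In both the 2 peaks overlapped only in part, and whether they mark the same binding site was not tested.

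The regions were spread over all 5 autosomes. Chromosome IV held 92, V 90, II 83, I 75 and III 68, or 5.26, 4.30, 5.43, 4.98 and 4.94 per Mb of chromosome, measured up to the last peak of all lists. V thus held 22.1% of the regions (exact binomial 95% interval 18.1% to 26.4%) and 25.4% of the autosomal length. Regions of 3 or 4 libraries were at 3.20, 2.01, 3.27, 4.32 and 4.28 per Mb in the same order, with V the lowest as well. On X, which the rule leaves out, 82 regions met the other conditions.

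Position along the chromosome was not used to choose the regions. On the arms, taken as the outer part at each end when the length is cut in 3, lay 249 of the 408 (61.0%, exact binomial 95% interval 56.1% to 65.8%). The share was 62.5% of 272 regions in 3 or 4 LAG-1 libraries, 68.7% of 1331 regions in 1 LAG-1 library and 70.3% of all autosomal regions. Of all 20839 autosomal regions only 2011 had a LAG-1 peak and no Notch or control peak, so the last share mostly describes other lists. Within libraries, 75%, 59.4%, 63.6% and 60.9% of the peaks of the 408 regions in a, b, c and e were on arms, against 63.8%, 62.7%, 59.5% and 62.7% of the peaks in regions of 3 or 4 libraries. The mean difference of 2.59 points, positive in a and c and negative in b and e, did not pass the test (exact two-sided sign-flip permutation over 4 libraries, p = 0.625, adjusted p = 0.967 over 3 tests). It was -1.44 without library c (exact p = 1). The smallest p that 4 libraries allow is 2 of 16 arrangements, so this test cannot pass. Libraries that share a region are not independent in this measure.

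Distances to regions of 3 or 4 LAG-1 libraries were similar for the 408 regions and for regions of 1 LAG-1 library. The nearest region of 3 or 4 LAG-1 libraries was a median of 103 kb away, against 114 kb for regions of 1 LAG-1 library. Within 1 kb of such a region lay 14 of 1331 regions of 1 LAG-1 library (1.05%) and 3 of the 408 (0.735%). These 3 were I from 13653718, V from 6247395 to 6247838 at 543 bp, and I from 8222978 to 8223318 at 916 bp; the last 2 were named for their place. The nearest other region of the 408 was a median of 66.7 kb away and within 10 kb for 49 regions. IV from 15234240 to 15234642 (c and e) and IV from 15235255 to 15235586 (b and e), named for their place too, were the closest, 613 bp apart.

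Separate peaks beside the regions were then counted. The rule looked only at overlap, but it used the same lists. It required LAG-1 peaks and removed regions with a Notch or control peak. A difference between the kinds of library therefore cannot be told apart from the choice of the regions. For each library, the regions without its peak were searched for a peak of that library within 1 kb of the region's edge. LAG-1 a, b, c and e had such a peak at 2.39%, 10.7%, 2.34% and 9.52% of 376, 56, 342 and 42 regions. Notch a, c and d had 1.72%, 14.7% and 0.735% of 408, and Notch b, with 44 peaks, had none. Myc control a, c and d had 14.95%, 13.5% and 0.245%, Flag control a 0.245%, and Flag control b and c none, where a count of 0 allows up to 0.735%.

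**Figure D5:**
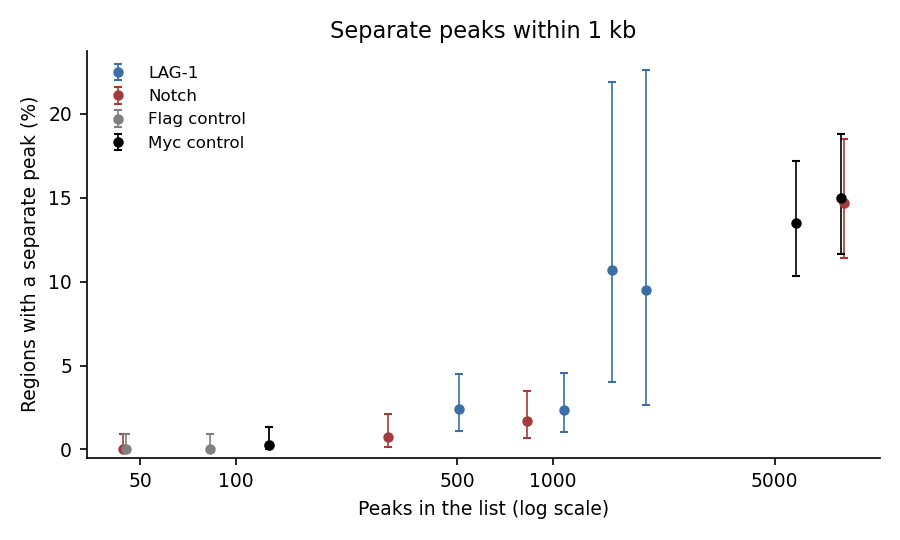
Percent of regions with a separate peak of a library within 1 kb (vertical axis) by the number of peaks in that library's list (horizontal axis, log scale); points are libraries and bars exact binomial 95% intervals. The 3 lists of over 5000 peaks lie at 13.5% to 14.95%, and the lists of under 130 peaks at 0.245% or less.

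The 3 longest lists had the highest shares and the shortest lists the lowest, while LAG-1 b and e, with 1533 and 1965 peaks, came next on the fewest regions. The mean was 6.24% ± 4.50 (SD, n = 4) for LAG-1, 4.29% ± 6.98 (SD, n = 4) for Notch and 4.82% ± 7.29 (SD, n = 6) for the controls. LAG-1 differed from the controls by 1.42 points (exact two-sided permutation p = 0.810, adjusted p = 0.967) and Notch by -0.531 points (exact two-sided permutation p = 0.967, adjusted p = 0.967). With at most 500 peaks of each list LAG-1 exceeded the controls by 6.39 points (exact permutation p = 0.00476, unadjusted, the smallest these arrangements can give). List length still differed there, since 4 of the 6 control lists hold only 45 to 127 peaks against 500 in each LAG-1 list, and its part in this difference was not tested. Over all 24 alternatives p ran from 0.00476 to 1 (exact permutation), and the difference was -2.14 without LAG-1 b and 15.2 without LAG-1 e. Notch minus controls was -4.27 without Notch c and 1.43 without Myc control a. With the whole lists, both differences were smaller than the spread between libraries of each kind. LAG-1, Notch and control lists all entered the choice of the regions, so none of these p-values supports a difference in binding.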

How the data were processed

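Peaks were deposited for 14 immunoprecipitation libraries. The submitters' processing notes name CASAVA 1.8, Bowtie, HOMER and build ce10. HOMER called peaks in each library against its own input, per the file headers. Control lists were cut at a false discovery rate of 0.001 and the others at 0.01, per the file headers. In the deposited lists normalized tags are given as signal per 10 M, total tags as counts (scaled by the authors in LAG-1 a and b), the fold over input and over 10 kb is a ratio, the focus ratio is a fraction, and the score is the caller's. Tag totals were 3.13 to 19.8 M, those of LAG-1 a and b after scaling, and intervals cover counting error only.

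Lists were merged with Python 3.11.15, pandas 2.3.3, numpy 2.4.6 and scipy 1.17.1, with peaks that share an end coordinate taken to overlap by 1 bp, and the merging and the permutation functions were checked on simulated data. Regions were ordered by the mean rank of fold within each list divided by its length. Named were the first 12, the first 2 of each pair, the last 2 and the 2 with the most distant centres. Chromosome length was the highest peak end in any list. Exact permutation tests were adjusted over 3 tests by the Benjamini-Hochberg method. No pairing by replicate letter was assumed. As alternatives served a fold of at least 6, a common Poisson threshold (1.40e-05), at most the 500 best peaks of each list (whole lists where shorter), other linking rules, left-out libraries and other distances. The regions, measures and tests were chosen with earlier results of these data known. No ce10 genome or annotation was used here, so motifs, sequences and genes, which had been planned, are not analysed here.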

Additional observations from a re-analysis of the deposited data

Results flagged for a closer look

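Among the 4 Notch libraries, Notch c stood apart in the share of regions with a separate peak within 1 kb, at 14.7% against 0% to 1.72% in the others. Its list of 8261 peaks was also the longest of all, and the part of list length in this value was not tested apart. Of 13 groups of libraries looked at this was the only one with such a gap, and chance flags about 1 in 20.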

How the results depend on the processing

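The 408 regions numbered 147 with the 500 best peaks of each list and 225 to 510 on leaving out 1 library (561 without the 3 long lists together) (239 without LAG-1 b and 225 without e). They numbered 278 with a fold of at least 6, of which 102 overlapped the 408, and 138 overlapped regions of at least 3 LAG-1 libraries. The 76.0% in b and e was 21.1% with the 500 best peaks and 85.5% and 90.1% without LAG-1 a or c. With 1 LAG-1 library left out, the rule became exactly 2 of the 3 left, and some regions of 3 libraries entered. The last 2 shares are therefore another measure than the 76.0%. The mean over libraries of the median fold, 5.79, was 8.01 when a 6-fold excess was required and 7.45 with the 500 best peaks. The arm share of 61.0% was 55.1% with the 500 best peaks and 41.4% with arms as the outer part of a length cut in 4. The 0.735% within 1 kb of a region of 3 or 4 libraries was 2.52% with a fold of at least 6, 3.40% with the 500 best peaks, and 2.21% within 5 kb. The arm difference of 2.59 points was -0.950 with a fold of at least 6, -3.18 with the 500 best peaks, and -1.44 to 3.56 on leaving out 1 LAG-1 library.

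For separate peaks, the lists compared had also chosen the regions, so no p-value here supports a difference in binding. LAG-1 minus controls was 6.39 points with the 500 best peaks (exact permutation p = 0.00476, over all alternatives 0.00476 to 1), where 4 of the 6 control lists hold only 45 to 127 peaks. The difference was 6.30 when a 6-fold excess was required, 11.5 with centres within 100 bp, 6.16 against Flag controls alone, -0.314 within 500 bp, -2.06 within 5 kb, -3.32 against Myc controls alone, and -2.14 to 15.2 on leaving out 1 library. With regions linked by centres within 100 bp, a peak that overlapped a region could also count as separate, so the 11.5 is another measure. Notch minus controls was 0.0899 with a fold of at least 6, 0.266 within 500 bp, 4.21 against Flag controls alone, -5.27 against Myc controls alone, and -4.27 to 1.43 on leaving out 1 library, with a positive value when Myc control a or c, or a Notch library other than c, was left out. With the replicate letter as a block, the replicate block values were 0.370 for LAG-1 and 0.643 for Notch (exact permutation p = 1 and 0.5). The cause of these changes was not tested. The common Poisson threshold gave 414 regions and changed the direction or the side of the threshold of none of the 3 tests. It could change little, since it kept all peaks of LAG-1 a and b, 1083 of 1085 in c and 1964 of 1965 in e. The list it shortened most was Notch c, to 6757 of 8261 peaks. The replicate letters are shared, but nothing in the labels says that a letter marks a shared batch. Motif results were not run. Depth limits what a missing peak shows: a region without a peak in a library may still hold tags under its threshold.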
